A study of Mus musculus with 9 samples.

Results

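Elastic fibres are built from a core of cross-linked elastin on a scaffold of microfibrils, and 10 genes of this matrix were followed here in 9 RNA-Seq libraries. They encode elastin (Eln), the microfibril backbone proteins fibrillin-1 and fibrillin-2 (Fbn1 and Fbn2), the microfibril-associated glycoproteins MAGP-1 and MAGP-2 (Mfap2 and Mfap5), the microfibril-associated protein Mfap4, the fibulins Fbln2 and Fbln5, the elastin microfibril interfacer Emilin1, and Thsd4, which encodes the fibrillin-binding protein also called ADAMTSL6. The 10 genes were chosen by name from 50686 genes in the table of counts, and Mfap5 and Thsd4 were picked as being among the largest decreases between SB216763-treated and control osteoblasts. For that comparison the values of the 10 genes are therefore a description without a test. The comparisons with ECs share the control or the treated libraries with it. The 10 genes and the lists of other pathway genes used below were chosen with earlier results of these data known. The adjusted p-values given for them are therefore not independent of the choice.

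The control group is the mouse osteoblast line MC3T3-E1 without the compound, the SB216763 group is the same line given 10 μM SB216763, an inhibitor of the GSK3 kinases, for 14 days, and the EC group is mouse pulmonary endothelial cells (ECs), isolated by FACS, with no treatment. These groups follow the titles and the treatment tags. The treatment protocol text, which describes only treated MC3T3-E1 cells, is repeated on all 9 samples, controls and ECs included. Each group has n = 3 libraries of total RNA. MC3T3-E1 is a single established line, the time in culture of its untreated libraries is not given in the sources used here, and no label says whether the 3 libraries of a group came from separate cultures, so p-values measure only the spread between these libraries, which may be technical. The libraries held between 30990107 and 68946333 counts, and 3 counts, the limit that a count of 0 allows, were between 0.0435 and 0.0968 CPM (counts scaled to the library total). These limits cover counting error only. Levels below are CPM after TMM normalization unless a sentence says otherwise, and fold changes are on the log2 scale. Passing the threshold means a log2 fold change of 2 or more in either direction with an adjusted p under 0.01, where adjusted p-values are Benjamini-Hochberg values of edgeR's quasi-likelihood test over all genes that were tested.

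The cell labels were checked against marker genes. Summed over 7 osteoblast markers, the controls had 43921 to 59349 CPM, the treated libraries 8068 to 8339 CPM, and the ECs 45.1 to 64.5 CPM, with Ibsp and Bglap at 3 counts or fewer. Nearly all of this sum in both osteoblast groups came from Col1a1 and Col1a2. Runx2 changed least of the 7 markers, from 158 CPM in controls to 116 CPM after treatment. The log2 fold changes of Sp7, Alpl, Ibsp, and Bglap between treated and control libraries were -3.52, -6.17, -3.74, and -1.12. For 8 endothelial markers the sums were 3.31 to 4.13 CPM in control, 4.51 to 5.05 CPM in treated, and 6424 to 6616 CPM in EC libraries. Vwf went from 1.16 CPM in controls to 2.42 CPM after treatment. Cdh5, Pecam1, and Kdr were at 0.585, 0.759, and 0.508 CPM in controls and at 0.599, 0.788, and 0.420 CPM after treatment. Tie1, Tek, Emcn, and Cldn5 averaged at most 0.369 CPM in both osteoblast groups. The summed level of 9 fibroblast and mural cell markers was between 46.3 and 49.6 CPM in ECs, against 8420 to 9129 CPM in the controls and 1746 to 1822 CPM after treatment. Most of the control sum came from Acta2 and Col3a1, which went from 2915 and 5198 CPM to 144 and 532 CPM after treatment. Pdgfrb, Pdgfra, and Lum went the other way, from 254, 33.3, and 53.2 CPM to 746, 67.0, and 87.9 CPM. The share of these markers in the values below was not tested. In 6 markers of immune and epithelial cells the sum was at most 58.2 CPM in any library, and Epcam and Sftpc were at or under 3 counts in every library. Most of the EC sum was Cd68, which averaged 46.6 CPM there, against 0.532 CPM for untreated and 1.63 CPM for treated osteoblasts. Lyz2 gave most of the osteoblast sums, with 26.0 CPM without the compound and 7.04 CPM with it, while ECs held 10.4 CPM. Ptprc averaged at most 0.154 CPM in any group. What Cd68 and Lyz2 mean for the values below was not tested. Control replicate 2 stood apart for long transcripts. Among genes of at least 10 CPM, its level over the mean of the other 2 controls had a median of -0.19 on the log2 scale for the 600 genes with over 12000 bp of exon, and of 0.10 for the 927 genes with up to 2000 bp.

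As background, fibrillins form beaded microfibrils outside the cell, and MAGPs and fibrillin-binding ADAMTSL proteins attach to them. Tropoelastin is then laid onto the scaffold with the help of fibulin-5, and lysyl oxidases cross-link it. Microfibrils also hold latent TGF-β and BMPs. Bone contains microfibrils and little elastin, and large arteries owe their recoil to elastic fibres made mainly by smooth muscle cells.

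Upstream sequences from RefSeq on GRCm38.p6 were at hand for 6 of the 10 genes, in 9 entries. They are shown for Thsd4, which had the lowest log2 fold change of the 10 genes after treatment, and for Fbln5, which was measured well in all 3 groups, because these entries had no overlap with an annotated exon. Each is the 250 bases before a transcript start, written 5′ to 3′ on the strand of the gene, and capitals mark the letters CTTTGA or their reverse complement. CTTTGA is the core of the site of the TCF/LEF factors, the DNA-binding partners of β-catenin, which GSK3 marks for degradation.
Thsd4, first start, minus strand, chr9:60511036-60511285: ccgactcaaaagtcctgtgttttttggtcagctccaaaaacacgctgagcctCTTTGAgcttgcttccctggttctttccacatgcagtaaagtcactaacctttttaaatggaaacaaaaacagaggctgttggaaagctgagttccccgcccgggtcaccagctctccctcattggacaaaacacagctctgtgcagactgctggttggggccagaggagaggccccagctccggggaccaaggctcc
Thsd4, second start, minus strand, chr9:60141221-60141470: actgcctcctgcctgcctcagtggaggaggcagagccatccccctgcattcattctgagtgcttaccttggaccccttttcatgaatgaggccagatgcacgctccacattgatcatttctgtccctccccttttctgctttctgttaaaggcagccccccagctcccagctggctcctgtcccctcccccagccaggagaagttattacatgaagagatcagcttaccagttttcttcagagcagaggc
Fbln5, first start, minus strand, chr12:101819120-101819369: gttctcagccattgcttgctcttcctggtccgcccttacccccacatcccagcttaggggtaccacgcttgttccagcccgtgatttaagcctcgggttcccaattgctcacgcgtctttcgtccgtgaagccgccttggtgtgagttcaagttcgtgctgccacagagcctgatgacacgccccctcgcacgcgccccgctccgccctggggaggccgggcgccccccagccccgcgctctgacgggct
The first Thsd4 start holds the motif once, at position -198 relative to the start, and the other entries shown have no match. Of the 9 entries of these genes, 3 hold the motif, 1 each of Thsd4, Fbln2, and Fbln5. Of all 32851 entries of this length, 13.8% hold it.

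Across the 3 groups the 10 genes fell into different orders. Thsd4, Fbn2, and Mfap4 were highest in the controls and lowest in ECs. Mfap5 and Fbln2 were highest in the controls and lowest after treatment. Fbn1 and Emilin1 were highest after treatment and lowest in ECs. Eln and Fbln5 were highest in ECs and lowest after treatment. In these 9 genes neighboring groups in the order did not overlap. Between treated and control osteoblasts the same held for 73.2% of all genes tested, and no such share is given for the comparisons with ECs. Nothing is read from the separation. For Eln the osteoblast groups were separated only after scaling, since a control and a treated library each had 3 counts. Mfap2 was highest after treatment, and its control and EC libraries overlapped. A lower level in bulk RNA can come from fewer cells that express a gene or from less RNA per cell, and these cannot be told apart here.

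**Figure D1:**
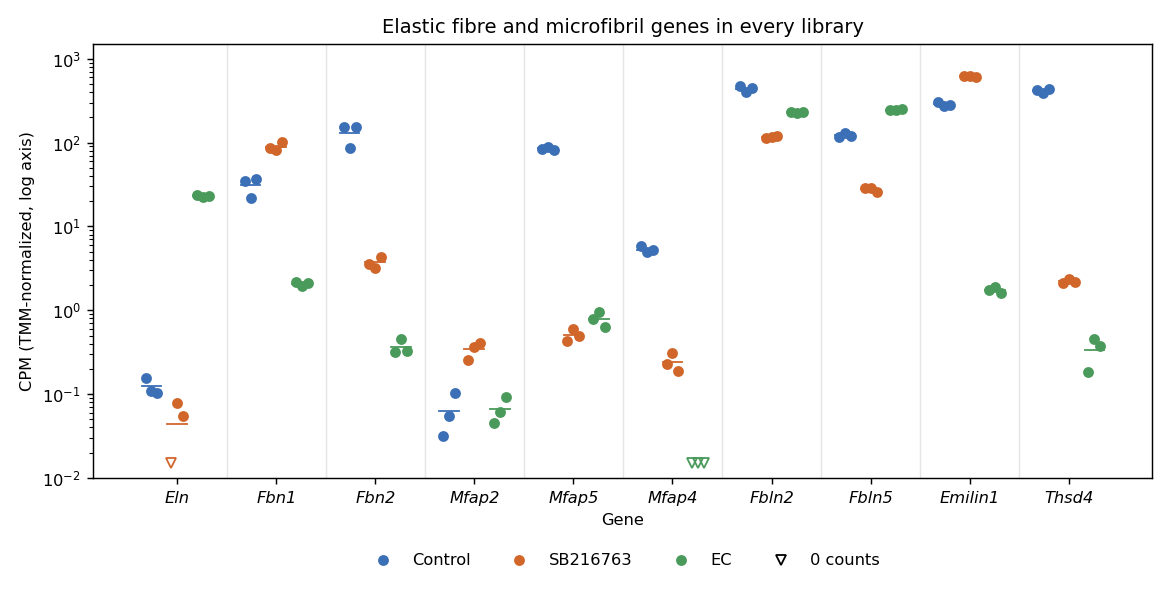
Level of each of the 10 genes in CPM on a log axis, with a point for each library, a line for the mean of each group of 3 libraries, and an open triangle for a library with 0 counts. Thsd4 and Mfap5 sit between 82.0 and 433 CPM in the controls and between 0.430 and 2.35 CPM after treatment, whereas Emilin1 and Fbn1 are higher after treatment.

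Eln, the gene of tropoelastin (chromosome 5, 134702593 to 134747323 in GENCODE M21 on GRCm38), was close to the limit of the depth in the osteoblasts. The control libraries had 10, 6, and 3 counts, the treated libraries 0, 3, and 2, and the EC libraries 1045, 742, and 988. The levels were 0.124 ± 0.0294 CPM in controls, 0.0442 ± 0.0401 CPM in treated cells, and 23.1 ± 0.705 CPM in ECs (SD, n = 3). From the summed counts, Eln was 180-fold higher in ECs than in the controls (95% exact counting interval, 115 to 299) and 510-fold higher than in treated osteoblasts (218 to 1572). Its log2 fold change between controls and ECs was -7.46 (standard error 0.15). Eln had enough counts for the filter only in ECs, so its comparisons with ECs are given as a description. Between the controls and the treated libraries the ratio of the summed counts was 2.84, with a counting interval of 1.03 to 9.73. That interval covers counting error only and is not read as a test. Leaving out single libraries moved the log2 fold change between -2.10 and -0.93.

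The fibrillins differed in opposite directions. Fbn2, the fibrillin-2 gene on chromosome 18, was at 152, 85.9, and 152 CPM in the 3 controls and at 3.61, 3.23, and 4.33 CPM after treatment. Its log2 fold change between treated and control libraries was -5.12 (standard error 0.21), and only 111 of the 15531 genes tested had a lower one. Fbn1, the fibrillin-1 gene that is mutated in Marfan syndrome (chromosome 2, 125300594 to 125507993), was at 34.8, 21.7, and 36.8 CPM in the controls and at 85.3, 81.3, and 101.8 CPM after treatment, a log2 fold change of 1.54 (standard error 0.14). All treated libraries lay below all controls for Fbn2 and above them for Fbn1. For the fibrillins, control replicate 2 stood apart, in the direction seen for long transcripts, and its part in these values was not tested. Both were lowest among the controls in replicate 2, and without that library the log2 fold changes were -5.36 for Fbn2 and 1.32 for Fbn1. An opposite-strand gene shares 20.1% of the exon length of Fbn1, and since the strand setting of the counting is not given in the sources used here, reads of that stretch are uncertain.

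Within a library, the balance of the fibrillins does not depend on the scaling. The raw count of Fbn1 over that of Fbn2 was 0.229, 0.252, and 0.242 in the controls and 23.6, 25.2, and 23.5 in the treated libraries. In ECs it was 6.79, 4.27, and 6.57, from between 14 and 15 counts of Fbn2 in each library. Per exon length, Fbn1 made up 20.8 ± 0.815% of the fibrillin signal in controls, 96.3 ± 0.132% in treated cells, and 86.0 ± 3.25% in ECs (SD, n = 3). Control replicate 2 did not stand apart in this ratio. Both fibrillins were low in ECs, Fbn1 at 2.09 ± 0.120 CPM and Fbn2 at 0.367 ± 0.0776 CPM.

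**Figure D2:**
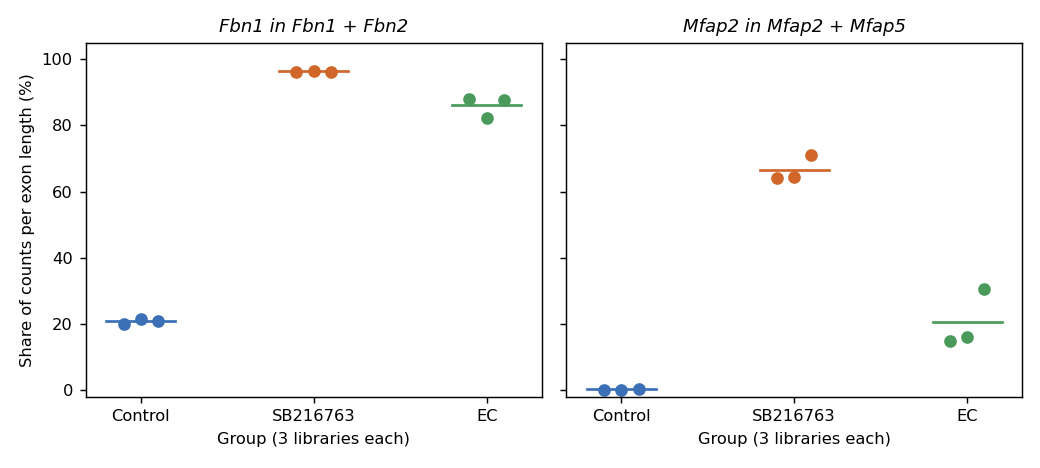
Share of Fbn1 in the summed Fbn1 and Fbn2 counts and of Mfap2 in the summed Mfap2 and Mfap5 counts, each per exon length, in percent, with a point for each library and a line for the group mean. Fbn1 lies between 19.9% and 21.6% in the controls and between 96.2% and 96.5% after treatment, and the Mfap2 share rests on at most 15 counts of Mfap2 per library.

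Of the microfibril-associated glycoproteins, Mfap5 (chromosome 6, 122505845 to 122529290) was the form present in the controls. It was at 84.9, 89.0, and 82.0 CPM in the controls and at 0.430, 0.60, and 0.490 CPM after treatment, from 15, 23, and 18 counts. The log2 fold change was -7.38 (standard error 0.10), and 23 genes had a lower one. In ECs it was at 0.779, 0.944, and 0.625 CPM, so that the treated osteoblasts lay below the ECs in every library. The log2 fold change of -0.59 between treated osteoblasts and ECs (standard error 0.21, edgeR adjusted p = 0.0171) did not pass the threshold. Mfap2, which encodes MAGP-1, had 2, 3, and 3 counts in controls, 9, 14, and 15 in treated cells, and 2, 2, and 4 in ECs. The ratio of its summed counts between treated and control osteoblasts was 6.36, with a 95% exact counting interval of 2.92 to 15.8. Mfap2 had enough counts for the filter only in the treated libraries, so this ratio is a description. The interval covers counting error only and is not read as a test. At 0.344 ± 0.0774 CPM after treatment, Mfap2 was still far below the control level of Mfap5. Per exon length, the share of Mfap2 in the sum of both genes was 0.222 ± 0.137% in controls, 66.5 ± 4.05% in treated cells, and 20.5 ± 8.72% in ECs.

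Mfap4, which encodes a fibrinogen-related protein that binds elastin and fibrillin-1, was at 5.78, 4.95, and 5.17 CPM in the controls and at 0.229, 0.313, and 0.191 CPM after treatment. The treated libraries held 8, 12, and 7 counts. The log2 fold change was -4.42 (standard error 0.20). Mfap4 had 0 counts in each EC library, so against a floor of 3 counts per library it was at least 69.3-fold higher in the controls and at least 3.19-fold higher in the treated osteoblasts than in ECs. The opposite-strand gene Mapk7, with up to 3563 counts in a library, shares 4.63% of the exon length of Mfap4.

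Thsd4 had the lowest log2 fold change of the 10 genes. It lies on chromosome 9 (59966931 to 60522046, minus strand), and its protein promotes the assembly of fibrillin-1 microfibrils. It was at 424, 386, and 433 CPM in the controls and at 2.12, 2.35, and 2.18 CPM after treatment, a log2 fold change of -7.54 (standard error 0.09). Only 20 of the genes tested had a lower one. In ECs it was at 0.183, 0.457, and 0.371 CPM, from between 8 and 16 counts. Treated osteoblasts were still above ECs, at 2.75 on the log2 scale (standard error 0.20, edgeR adjusted p = 2.68e-09).

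Fbln5 and Fbln2 were lower after treatment. Fbln5, whose protein binds tropoelastin and integrins and is needed for elastic fibre assembly, was at 118, 131, and 121 CPM in the controls and at 28.5, 28.7, and 25.7 CPM after treatment, at -2.16 on the log2 scale (standard error 0.06). The EC libraries had 244, 247, and 252 CPM, the highest level of the 3 groups, and no library of a group overlapped with those of another. Fbln2, which encodes a fibulin of basement membranes and microfibrils, was at 468, 407, and 448 CPM in controls, at 113, 117, and 121 CPM in treated cells, and at 231, 225, and 233 CPM in ECs. The log2 fold change between treated and control libraries was -1.91 (standard error 0.06). These genes lie nearest to the fold threshold, Fbln5 just inside it and Fbln2 just outside. With library sizes alone as the scaling, Fbln5 was at -1.96 and also outside.

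Emilin1, which encodes a glycoprotein at the interface of elastin and microfibrils that restrains TGF-β processing (chromosome 5, 30913402 to 30921277), went the other way. It was at 302, 272, and 282 CPM in the controls and at 626, 623, and 609 CPM after treatment, a log2 fold change of 1.12 (standard error 0.05). In ECs it was at 1.74, 1.92, and 1.60 CPM. After treatment it was the most abundant of the 10 genes per exon length.

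Between treated and control osteoblasts, 5 of the 10 genes were lower past the threshold (Thsd4, Mfap5, Fbn2, Mfap4, and Fbln5), where 5.84% of all genes tested were lower past it. The only gene higher past it was Mfap2, against 3.81% of all genes, and Mfap2 had enough counts for the filter only in the treated libraries. The median log2 fold change of the 10 genes was -2.04, and that of all genes tested was 0.01. The libraries of both groups did not overlap for any of the 10 genes, which held for 73.2% of all genes tested. The choice of the genes used this comparison, so nothing is read from these counts.

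**Figure D3:**
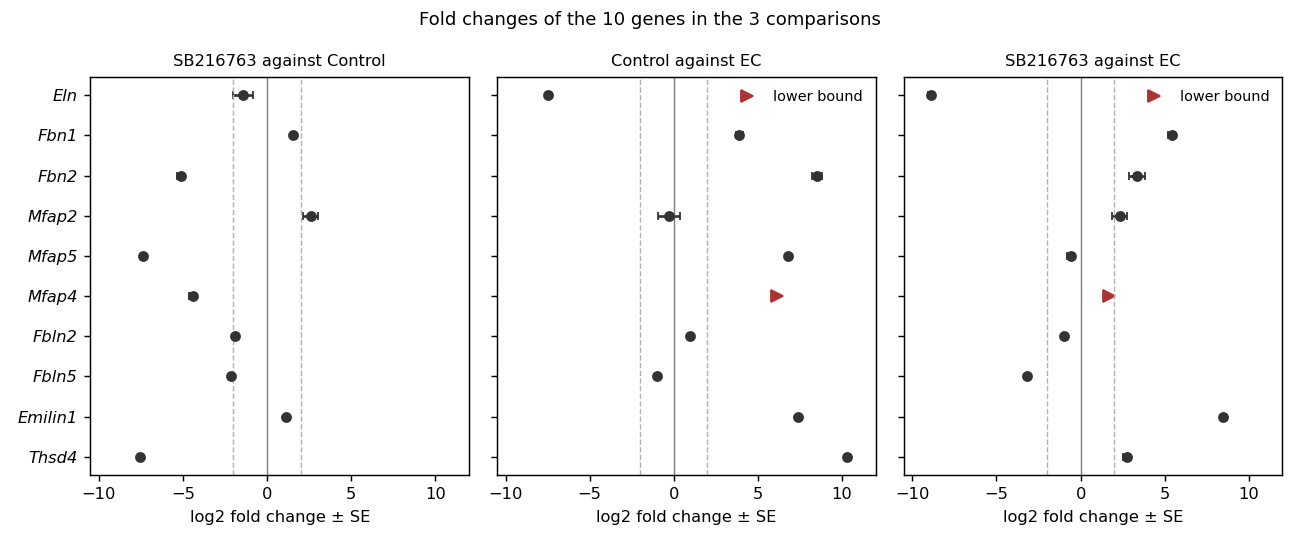
Log2 fold change with its standard error of each of the 10 genes in the 3 comparisons, with dashed lines at -2 and 2 and a triangle for a lower bound where ECs had 0 counts. Thsd4, Mfap5, Fbn2, and Mfap4 lie between -7.54 and -4.42 in the first panel, and Eln and Fbln5 are the only genes below -2 in the third.

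Control osteoblasts were set against ECs, the cells toward which the study examined a transition. Of the 10 genes, 6 were higher in the controls past the threshold, where 9.87% of all genes tested were, and 1 was lower, where 13.5% were. The gene lower in the controls was Eln, which had enough counts for the filter only in ECs and is given as a description. The 6 higher genes were Thsd4 with a log2 fold change of 10.30, Fbn2 with 8.48, Emilin1 with 7.35, Mfap5 with 6.79, Fbn1 with 3.88, and Mfap4, which was at 0 in ECs. Mfap4 had enough counts for the filter only in the controls and is likewise a description. For Emilin1 the standard error was 0.08 and the edgeR adjusted p was 5.67e-20. The fibulins differed less. Fbln2 was higher in the controls by 0.94 (standard error 0.05, edgeR adjusted p = 1.02e-10), and Fbln5 had a log2 fold change of -1.0 (standard error 0.05, edgeR adjusted p = 2.88e-11). For Mfap2 a difference was not detectable at between 2 and 4 counts per library (edgeR adjusted p = 0.704). At any fold change and an adjusted p under 0.01, 7 were higher and 2 lower, where 37.9% and 39.0% of all genes were. The median log2 fold change of the 10 genes was 5.33, or 5.0 with Mfap4 at its bound, and that of all genes tested was -0.01.

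In the fit of treated osteoblasts against ECs, 6 genes were higher past the threshold, where 10.3% of all genes tested were, and 2 lower, where 15.0% were. The 6 include Mfap4, whose lower bound of 3.19-fold against 0 counts in ECs is itself below the fold threshold, and Mfap2, which had enough counts for the filter only in the treated libraries and is given as a description. The lower genes were Eln, at -8.90 on the log2 scale (standard error 0.19), and Fbln5, with -3.16 (standard error 0.06, edgeR adjusted p = 3.57e-17). Eln had enough counts for the filter only in ECs and is given as a description. Emilin1 and Fbn1 were higher by 8.47 and 5.41, Fbn2 by 3.36, and Thsd4 by 2.75. For Mfap2 the ratio of summed treated to EC counts was 5.17, with a 95% exact counting interval of 2.38 to 12.8. Fbln2, which was higher in the controls than in ECs, was lower after treatment than in ECs, at -0.97 on the log2 scale (standard error 0.05, edgeR adjusted p = 7.04e-11). The median log2 fold change was 2.54, or 2.0 with Mfap4 at its bound, against -0.02 for all genes tested.

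Levels were compared between genes as CPM per kb of annotated exon. In the controls, Fbln2 led with 69.2 ± 4.89 CPM per kb, followed by Emilin1 with 57.8 ± 3.10, Thsd4 with 29.6 ± 1.78, Mfap5 with 23.8 ± 0.982, Fbln5 with 17.9 ± 1.01, and Fbn2 with 9.85 ± 2.90 (SD, n = 3). Mfap4 and Fbn1 came next, with overlapping libraries, and Mfap2 and Eln were last. After treatment the order was Emilin1 with 125 ± 1.80 CPM per kb, Fbln2 with 18.4 ± 0.631, Fbn1 with 7.38 ± 0.897, and Fbln5 with 4.0 ± 0.249, and the other 6 genes were below 1 CPM per kb. In ECs, Fbln2 with 36.1 ± 0.682 and Fbln5 with 35.9 ± 0.564 CPM per kb overlapped, Eln followed with 2.86 ± 0.0870, and the other 7 were below 1. The order depends on the length used. Per kb of coding sequence, Mfap5 led in the controls with 173, before Thsd4 with 136, Fbln2 with 120, and Emilin1 with 93.5, and in ECs Fbln5, with 179, was ahead of Fbln2, with 62.7. In treated cells Fbln5, with 20.0 CPM per coding kb, was then ahead of Fbn1, with 10.4, and Mfap5 was at 1.03.

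The sum over the 10 genes was 213 ± 11.2 CPM per kb in controls, 156 ± 0.553 in treated cells, and 75.6 ± 0.990 in ECs (SD, n = 3). What made up this sum differed between the groups. In the controls Fbln2 took 32.4%, Emilin1 27.1%, Thsd4 13.9%, and Mfap5 11.2%. After treatment Emilin1 took 80.3 ± 0.873%, and Thsd4 and Mfap5 took 0.101% and 0.0903%. In ECs Fbln2 took 47.7%, Fbln5 47.4%, and Eln 3.78%. Per coding length these values moved: the sums were 637 ± 15.5, 269 ± 1.91, and 254 ± 3.12 CPM per kb in the same order of groups. Mfap5 then took 27.2% and Emilin1 14.7% in the controls, Emilin1 75.6% in treated cells, and Fbln5 70.7% and Fbln2 24.7% in ECs. As a share of all counts of a library, the 10 genes made up between 0.130% and 0.146% in the controls, between 0.0904% and 0.0933% after treatment, and between 0.0505% and 0.0517% in ECs.

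**Figure D4:**
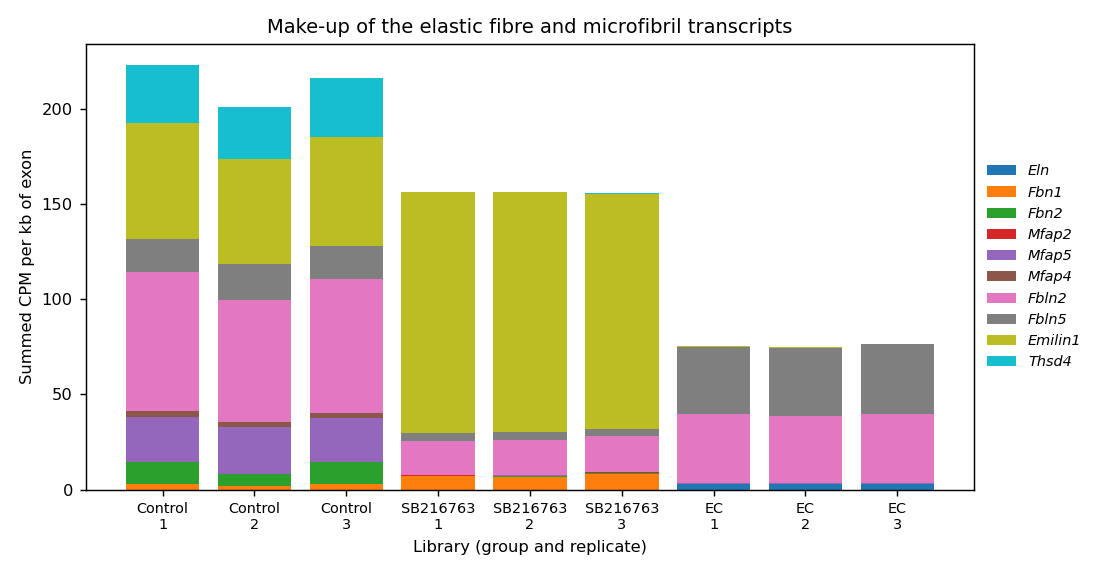
Summed level of the 10 genes in CPM per kb of exon for each library, divided by gene. The sum is highest in the controls, at 201 to 223 CPM per kb of exon, and Emilin1 takes most of it after treatment, while Fbln2 and Fbln5 take nearly all of it in ECs.

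The genes with the most similar pattern over the 9 libraries were found by the Euclidean distance of log2 CPM, centered on the mean of each gene, over 15529 other genes. For Thsd4 these were Panx3, a pannexin channel gene, at 0.83, Tnn, which encodes tenascin-N, at 2.0, and Fndc1 at 2.10. Panx3 was at 186 CPM in controls, 1.37 CPM with the compound, and 0.115 CPM in ECs. For Mfap5 they were the keratin-associated protein gene Krtap1-5 at 1.10, the integrin ligand gene Npnt at 1.54, and Chodl at 1.59. Npnt had 4459 CPM in the controls, 61.3 CPM in treated cells, and 46.9 CPM in ECs. Krtap1-5 and Chodl were at 4.38 and 3.52 CPM in the controls, at 0 in treated cells, and at 0 and 0.00772 CPM in ECs. The log2 CPM used a prior count of 2, on which values at or near 0 depend. For Eln they were Ube2ql1 at 1.05, Klra4 at 1.05, and Tc2n at 1.13, all of which were on average at most at 0.177 CPM in both osteoblast groups.

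The other genes of the elastic fibre pathway came from 9 lists with 44 genes, of which 36 passed the filter on low counts. The lists were chosen with earlier results of these data known, and 4 of the genes were listed for their MFAP name. In treated against control osteoblasts, 4 of the 36 rose past the fold threshold and 6 fell, against 3.81% and 5.84% of all genes tested. At any fold change and an adjusted p under 0.01, 16 rose and 14 fell, where 32.9% and 32.0% of all genes did. The 8 genes that were not tested, Fbln1, Efemp1, Emilin3, Mmrn1, Adamtsl2, Mmp12, Ctss, and Elane, were at most at 0.517 CPM in any library.

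The lysyl oxidases, which cross-link elastin and collagen, moved both ways. Of the 5 tested, 2 fell past the threshold, Lox and Loxl4, where 5.84% of all genes tested did. Lox, which the ECs held at 0.871 ± 0.179 CPM, dropped from 1312 ± 64.8 to 148 ± 7.77 CPM, and its log2 fold change after treatment was -3.15 (standard error 0.07, edgeR adjusted p = 8.04e-16). Loxl4 went from 68.7 ± 1.14 to 11.1 ± 0.647 CPM. Loxl1, whose product acts on elastic fibres in particular, rose from 42.4 ± 1.84 to 85.8 ± 4.46 CPM, and Loxl3 from 68.3 ± 1.06 to 149 ± 1.07 CPM, each at an adjusted p under 0.01 and below the fold threshold. Loxl2 was at 0.453 CPM in controls, 0.648 CPM in treated cells, and 25.9 CPM in ECs.

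The latent TGF-β binding proteins tether TGF-β to microfibrils. After treatment 1 of 4 rose and 1 fell past the threshold, where 3.81% and 5.84% of all genes tested did. Ltbp3 went from 84.4 ± 8.13 to 588 ± 5.11 CPM (log2 fold change 2.80, standard error 0.06, edgeR adjusted p = 1.82e-15), against 134 CPM in ECs. Ltbp1 went from 372 ± 41.7 to 72.4 ± 3.24 CPM (log2 fold change -2.36, edgeR adjusted p = 7.46e-14), against 603 CPM in ECs. Of the 3 TGF-β ligand genes none passed the fold threshold, and Tgfb2, the nearest, went from 90.9 to 26.3 CPM (log2 fold change -1.79.)

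Among 7 tested genes of ADAMTS and ADAMTS-like proteins, the family to which Thsd4 belongs, 2 fell past the threshold, where 5.84% of all genes did, and none rose past it. Adamtsl3 went from 322 ± 34.2 to 24.3 ± 1.70 CPM, at -3.72 on the log2 scale (standard error 0.08, edgeR adjusted p = 1.25e-15). Adamts17 had 1 count in each treated library, and the ratio of its summed control to treated counts was 16.2, with a 95% exact counting interval of 5.30 to 80.5. Adamtsl5, which rose below the fold threshold, had a log2 fold change of 1.26. At any fold change 6 of the 7 fell, where 32.0% of all genes did.

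Of the 4 tested fibulins outside the 10 genes, Fbln7 rose from 6.61 ± 0.330 to 31.7 ± 1.93 CPM, and Hmcn1, which encodes the large fibulin family protein hemicentin-1, fell from 1.06 ± 0.291 to 0.101 ± 0.0445 CPM, below the 15.8 CPM of ECs. Their log2 fold changes were 2.25 and -3.34, with edgeR adjusted p = 4.99e-14 and 9.76e-07. Efemp2, the gene of fibulin-4, which guides lysyl oxidase to tropoelastin, was at 379 ± 21.3 CPM in controls, 263 ± 12.1 CPM in treated cells, and 0.548 ± 0.143 CPM in ECs. Of the EMILIN and multimerin genes, Emilin2 went from 24.0 to 7.69 CPM (log2 fold change -1.64), opposite in sign to that of Emilin1, and Mmrn2, an endothelial matrix gene, was at 113 CPM in ECs and at most 0.163 CPM on average in the osteoblast groups. None of the 4 genes that carry the MFAP name beyond the 10 passed the fold threshold, and Mfap1a and Mfap1b, near-identical copies, are uncertain.

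Of 7 genes of elastolytic proteases, Mmp12, Ctss, and Elane were not tested. The 4 tested (Mmp2, Mmp9, Ctsk, and Ctsl) rose at any fold change and an adjusted p under 0.01, as did 32.9% of all genes, and Ctsl, the cathepsin L gene, also passed the fold threshold, from 127 ± 5.36 to 671 ± 36.7 CPM (log2 fold change 2.40, edgeR adjusted p = 1.71e-15). Overlapping genes share part of the exons of Ctsl, Ctsa, and Loxl3, so their counts are uncertain. The 3 genes of the elastin receptor complex, Glb1, Neu1, and Ctsa, rose by the same measure, and Neu1, the lysosomal neuraminidase gene, passed the fold threshold, from 20.5 ± 0.371 to 129 ± 4.0 CPM (log2 fold change 2.65, edgeR adjusted p = 1.47e-16). These genes also serve lysosomes in general.

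**Figure D5:**
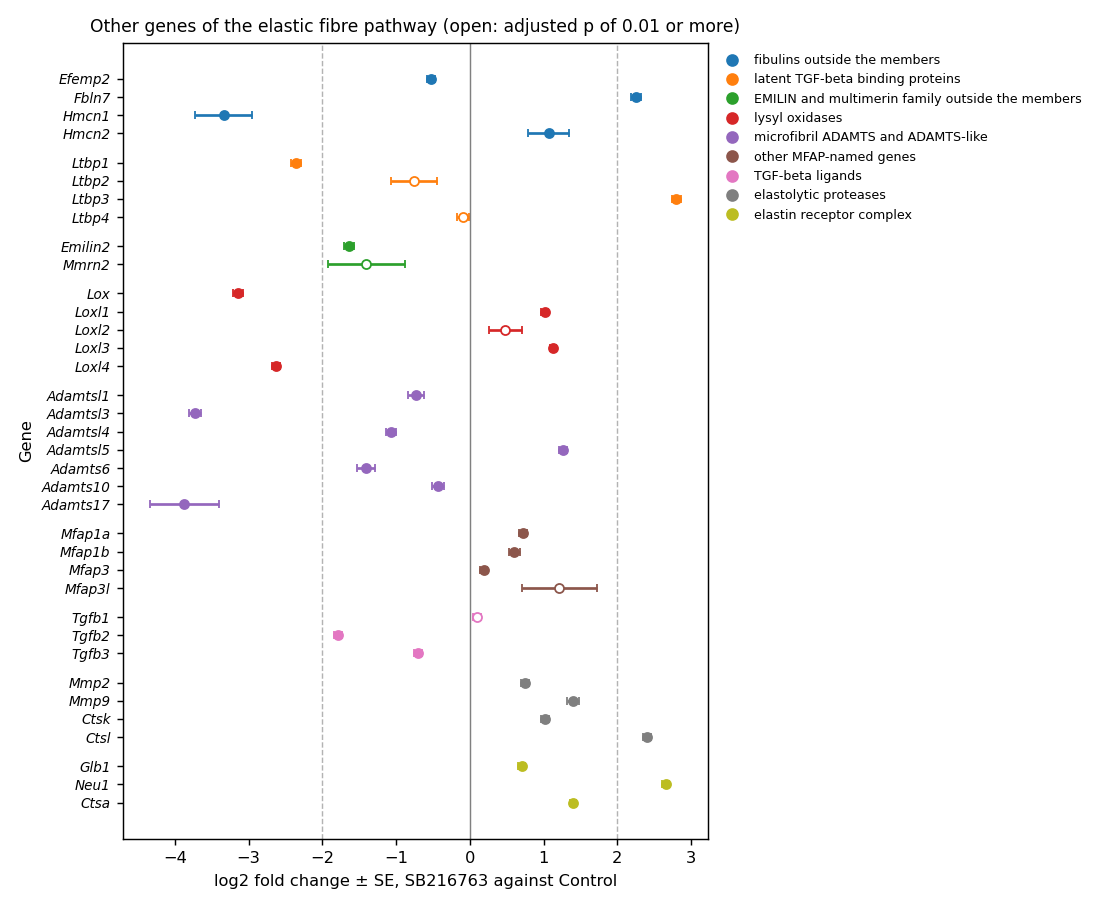
Log2 fold change with its standard error of the 36 tested genes of the other elastic fibre pathway lists in treated against control osteoblasts, colored by list, with dashed lines at -2 and 2 and open points where the edgeR adjusted p was 0.01 or more. Lox, Loxl4, Adamtsl3, Adamts17, Hmcn1, and Ltbp1 lie below -2, and Ltbp3, Neu1, Ctsl, and Fbln7 lie above 2.

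Against ECs, 11 of the 36 other pathway genes were higher in the controls past the threshold and 5 were lower, where 9.87% and 13.5% of all genes tested were. Among the higher genes, the largest log2 fold changes were those of Lox with 10.57, Efemp2 with 9.46, and Adamtsl3 with 9.25. The genes lower in the controls were Mfap3l with -10.94, Mmrn2 with -9.53, Loxl2, Ltbp2, and Hmcn1. Mfap3l was listed for its MFAP name. Mfap3l and Mmrn2 had enough counts for the filter only in ECs. Both comparisons of these genes with ECs are therefore given as a description. In treated osteoblasts against ECs, 14 were higher and 8 lower, where 10.3% and 15.0% of all genes were. Ltbp3 and Ltbp1 passed the threshold only in that comparison with ECs, with log2 fold changes of 2.14 and -3.06, and had -0.66 and -0.70 for the controls against ECs.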

How the data were processed

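The authors aligned the reads and made the counts per gene with STAR (2.5.3a and GRCm38 in the submitters' processing notes), and deposited raw counts of 50686 genes for 9 libraries. Annotation and strand setting are not given in the sources used here. All columns matched a library by title. Symbols and GENCODE M21 coordinates were found for 50376 identifiers. Libraries were grouped by title.

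The filterByExpr function of edgeR 4.0.16 (R 4.3.3) selected genes at a minimum count of 10, and TMM-scaled counts were fitted with the quasi-likelihood model over all 9 libraries without covariates. Depth ran from 30990107 to 68946333 counts. The 15531 p-values of a comparison were adjusted by the Benjamini-Hochberg method. The cutoffs come from the paper's methods. The prior count of the fold changes was 0.125, and each standard error came from the fold change and its F statistic. Lengths are the union of annotated exons.

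The members and lists were chosen with earlier results of these data known. The text names the 10 genes, up to 3 other pathway genes per list with the largest change past the threshold, all genes of counts up to 5, markers, and the 3 nearest patterns of Eln, Mfap5, and Thsd4. Other genes, such as Efemp2, Loxl1, and Emilin2, were added after their values were seen. Alternatives were other normalizations, limma-voom (limma 3.58.1), DESeq2 1.42.0, no filter, 2-group fits, any fold change, the replicate block, coding length, and leaving out each library. The tests were tried on simulated counts.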

Additional observations from a re-analysis of the deposited data

How the results depend on the processing

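The 10 genes kept their direction in every alternative run, except Mfap2 between controls and ECs, which rests on 2 to 4 counts and whose log2 fold change moved between -0.61 and 0.11. The only gene that crossed the threshold under a different scaling or test was Fbln5 after treatment, at -1.96 with library sizes alone, a scaling that shifted the median of all genes by 0.20 in treated against control osteoblasts and by -0.13 in controls against ECs. With fits of only the 2 groups, 0 of the 10 genes were higher past the threshold after treatment, because Mfap2 no longer passed the filter. In the fit of only treated and EC libraries, Mfap2 and Mfap4 also had too few counts for the filter and are not among its higher genes. At any fold change and an adjusted p under 0.01, 3 of the 10 genes were higher and 6 lower after treatment. Of all genes tested, 32.9% and 32.0% were, and nothing is read from these counts, as the choice of genes used this comparison. In controls against ECs, 7 were higher and 2 lower, where 37.9% and 39.0% of all genes were. Among the 36 other pathway genes tested, 16 were then higher and 14 lower after treatment, and 18 were higher and 14 lower in controls than in ECs. The shares of all genes are those just given.

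With single libraries left out, the 10 genes gave the same counts in the 3 comparisons. With the replicate number as a block, the counts for the 10 genes were 1 higher and 5 lower after treatment, 6 and 1 in controls against ECs, and 6 and 2 in treated osteoblasts against ECs, equal to those without it. Without the block, the shares of all genes tested were 3.81% and 5.84%, 9.87% and 13.5%, and 10.3% and 15.0% in these comparisons. The other pathway genes were also equal with the block. Whether the numbers mark a pairing is not known, since no label says so and weak correlations cannot exclude it. The correlations of same-numbered libraries across genes ranged from -0.0392 to 0.123, and 4 of 9 libraries correlated best with their own number. Depth limits Eln and Mfap2 in the osteoblasts, Mfap4 and Mfap5 after treatment, and Fbn2, Thsd4, Mfap2, Mfap4, and Mfap5 in ECs, with at most 34 counts in a library.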
